A study of Rattus norvegicus with 4 samples.

Results

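The orexin and melanin-concentrating hormone (MCH) systems of the hypothalamus comprise 5 genes on the array: the peptide precursors Hcrt and Pmch and the receptors Hcrtr1, Hcrtr2 and Mchr1. They were chosen by symbol, ignoring case, and each was measured by 1 probe, so that 5 of 22523 probes and 5 of 21397 named genes are described. The probes were ILMN_1355146 for Hcrt, ILMN_1356416 for Pmch, ILMN_1367383 for Hcrtr1, ILMN_1357940 for Hcrtr2 and ILMN_1360340 for Mchr1. Probe sequences and a genome build were not given in the sources used here, and no positions are given.

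Orexin, also called hypocretin, is made by a small group of neurons in the lateral hypothalamus that keep animals awake and promote food seeking, and loss of these neurons causes narcolepsy. MCH is made by separate neurons of the same area and the neighbouring zona incerta, and promotes feeding, energy storage and sleep. Hcrt encodes a precursor that is cut into orexin A and orexin B. Hcrtr1 prefers orexin A, Hcrtr2 binds both peptides, and both receptors mainly excite cells through Gq proteins. Mchr1, which couples to Gi and Gq, is the only MCH receptor of rodents.

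Total RNA of whole hypothalami from male Wistar rats aged 4 months was measured on Illumina bead arrays, with 1 sample in each of 4 groups. Control offspring and prenatally undernourished offspring (FR30) each contributed a sample from standard diet and a sample from high-fat (HF) diet, named below by origin and diet as control standard and control HF, then FR30 standard and FR30 HF. The composition of the HF diet, the time on it and whether a sample was 1 rat or a pool were not given in the sources used here. With 1 sample per group the differences had no replicate check. An SD was deposited beside each signal without stating what it was taken over, and over all probes it had a median of 3.20% to 3.41% of the signal. In each sample between 10579 and 11122 probes were detected, that is, had a detection p under 0.01 against negative control probes. In RNA of whole tissue, fewer cells of a type and less RNA per cell cannot be told apart.

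Hypothalamic tissue was represented, since 6 of 7 arcuate feeding peptides and 9 of the 10 measured markers of lateral and posterior hypothalamus were detected in all comparisons. Summed signals of the lateral and posterior markers were 15514, 15494, 14157 and 15176 in the order just given, so that the FR30 standard sample was lowest. Markers of neighbouring tissue differed more. Summed signals of 5 detected midbrain dopamine markers were 5386, 5459, 6218 and 8261 in the same order, with Ddc, Foxa2 and Pitx3 not detected in any sample. On HF against standard diet in control offspring, 9 of 10 detected thalamus markers were lower, with a median log2 difference of -0.51 and 3 past 1.5-fold. On the authors' normalized signal the median was -0.29 and 1 of these 3, Rora, passed. Single neighbouring-tissue genes went further. The dopamine transporter gene Slc6a3 had signals of 370 and 357 in the control samples, 593 in FR30 standard and 1642 in FR30 HF. Ttr, the main product of choroid plexus, had 523, 183, 209 and 1251, and the pituitary hormone gene Prl 759, 159, 313 and 240, in the order of the groups, with neither detected in control HF. The choroid plexus sums were 10548, 9587, 9866 and 11913, mostly from Enpp2 at 9363, 8751, 8994 and 9936. Folr1 and Kl of that list were not detected in any sample. The pituitary sums were 6871, 7091, 7640 and 9627. Tshb, a thyrotropin subunit, gave 3456, 3987, 4429 and 5329 of these, and Pomc, also an arcuate peptide, 2029, 2368, 2318 and 3497. Lhb, at 213, 161, 192 and 171, was highest in control standard, as was Prl. Cga, Fshb, Ghrhr and Pou1f1 of the pituitary list were not detected in any sample. The sum over 9 pan-neuronal genes was between 73206 and 74594. The part of these markers in the results below was not tested.

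Hcrt was detected in all samples at a detection p of 0. Among controls, its normalized signal was 2242 ± 199 (deposited SD) with standard diet and 2598 ± 116 with HF diet. Among FR30 rats it was 2447 ± 28.6 with standard diet and 2439 ± 16.7 with HF diet. Control standard was lowest, control HF highest, and the FR30 samples lay between them and close to each other. The highest group exceeded the lowest 1.16-fold. The ranges of 1 deposited SD overlapped between control standard and FR30 HF and between the FR30 samples, but that of control HF lay above those of all other groups. The SD of Hcrt itself was uneven, from 8.89% of the signal in control standard to 0.685% in FR30 HF.

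Pmch was among the brightest probes, ranked between 11 and 14 of 22523 in every sample, which reflects the probe as well as the amount of transcript. Its normalized signal was 38829 ± 972 (deposited SD) in control standard, 39810 ± 1283 in control HF, 38931 ± 2466 in FR30 standard and 39312 ± 941 in FR30 HF. All 4 ranges of 1 SD overlapped, and the highest group exceeded the lowest 1.03-fold. The order of the groups therefore cannot be read from these values. The non-normalized signal of Pmch was ordered otherwise, with 38794 in control standard, 34420 in control HF, 34753 in FR30 standard and 36954 in FR30 HF. Median non-normalized signals over all probes were 190, 173, 169 and 177 in the same order. Before normalization Pmch largely moved with this overall brightness of the arrays. It was lowest in control HF, however, whereas the median was lowest in FR30 standard.

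Of the orexin receptors, Hcrtr1 was clearly detected and Hcrtr2 was dim. Hcrtr1 had a detection p of 0 in all samples and normalized signals of 423 ± 6.86 (deposited SD) in control standard, 474 ± 32 in control HF, 458 ± 30.8 in FR30 standard and 460 ± 16.5 in FR30 HF. As for Hcrt, control standard was lowest and control HF highest, 1.12-fold apart. The range of 1 SD of control standard lay below those of control HF and FR30 HF, and the other 4 pairs of groups overlapped. Hcrtr2 had 230 ± 0.498 in control standard, 227 ± 6.62 in control HF, 224 ± 12.2 in FR30 standard and 228 ± 5.52 in FR30 HF, all overlapping. Its detection p was 0.00364 in every sample, which corresponds to 3 of 825 negative control probes at or above it.

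Mchr1, the MCH receptor, lay at the edge of detection. Its normalized signal was 180 ± 8.83 (deposited SD) in control standard, 189 ± 10.7 in control HF, 194 ± 10.1 in FR30 standard and 191 ± 9.72 in FR30 HF, against medians over all probes between 181.0 and 181.2. The 4 ranges of 1 SD overlapped. In control standard its detection p was 0.0230, with 19 of 825 negative controls at or above it, so it was not detected there. In the other samples 6 or 7 negative controls were at or above it in the non-normalized table, and it passed the threshold. Mchr1 differences are thus small differences above background.

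**Figure D1:**
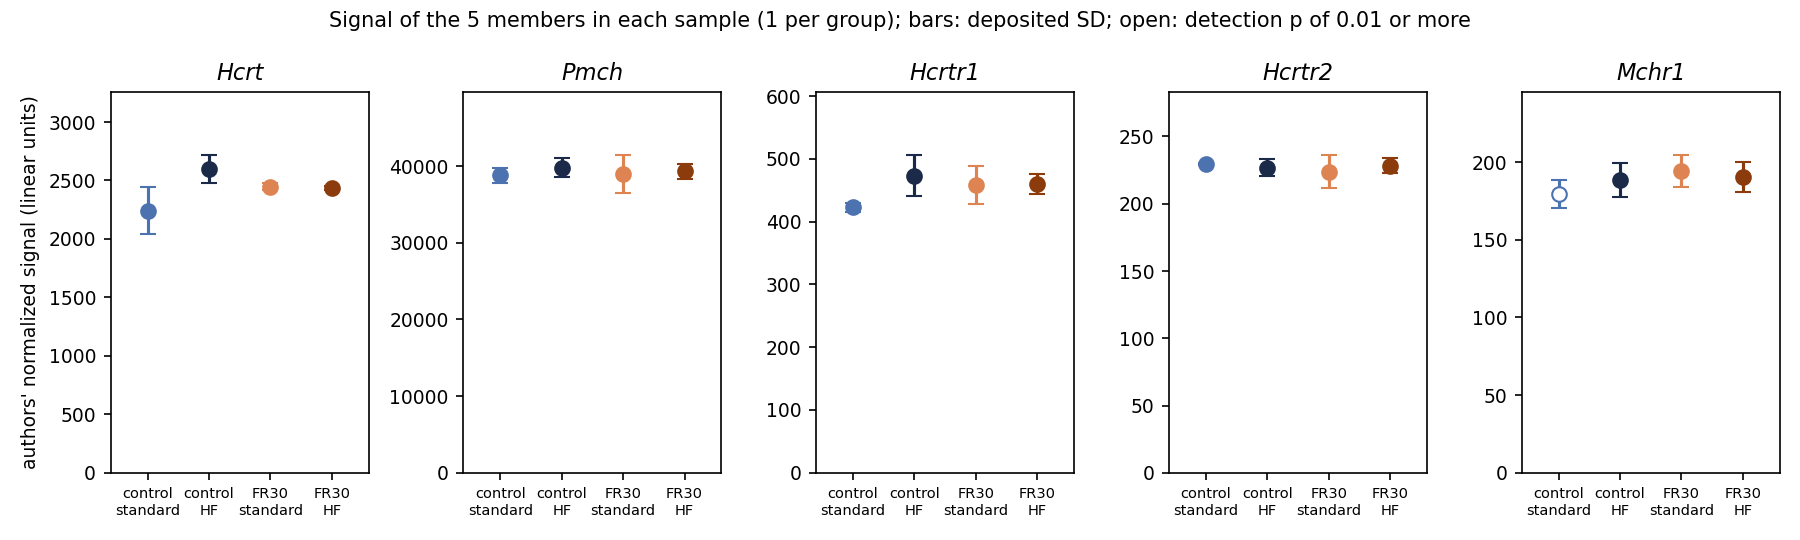
Authors' normalized signal (vertical axis, linear units from 0) of Hcrt, Pmch, Hcrtr1, Hcrtr2 and Mchr1 in the 4 samples, 1 per group, with the deposited SD as bars and an open symbol where the probe was not detected. Each gene differed little between groups, and the highest over the lowest sample was 1.16-fold for Hcrt, 1.03-fold for Pmch and 1.12-fold for Hcrtr1.

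Differences between groups were computed as log2 differences after background correction and quantile normalization (neqc), and a gene detected in both samples counted as past the size threshold at 1.5-fold or more, a log2 difference of 0.58. No member passed it in any of the 4 comparisons. Background correction widens the differences of dim probes, and the deposited SD is therefore given below on the same log2 scale, with the SDs of the 2 samples combined.

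The first comparison asked how HF diet and standard diet differed in control offspring. Hcrt was higher on HF diet by a log2 difference of 0.22 ± 0.14 (deposited SDs combined), and Hcrtr1 by 0.24 ± 0.13. Of 10398 genes detected in both samples, 12.3% were at least as far from 0 as Hcrt and 9.61% at least as far as Hcrtr1. Set against only the 1040 detected genes of similar level to each, the shares were 5.67% for Hcrt and 9.33% for Hcrtr1. On the non-normalized signal Hcrt was higher on HF diet by 0.07 and Hcrtr1 by 0.045. Pmch differed by 0.03 ± 0.06 and Hcrtr2 by -0.05 ± 0.09, both less than the SD. Mchr1 was not detected on standard diet. After background correction it was at least 1.03-fold higher on HF diet, set against the lowest detected signal of the dimmer sample, but its non-normalized signal was lower on HF diet (182 against 189), so no direction is drawn. None of the 4 members detected in both samples was past 1.5-fold, against 0.587% of all genes. Hcrt and Hcrtr1 were the 2 of these 4 with ranges of 1 deposited SD that did not overlap, which was also so for 31.6% of all genes. The median of the 4 members was 0.12, beside 0.01 over all genes.

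In FR30 offspring the diet difference after normalization was nearer to 0 for Hcrt and Hcrtr1. Hcrt had exactly the same value on both diets, a difference of 0.00 ± 0.02, because the probe held the same rank, 1684, in both samples and quantile normalization gives equal ranks equal values. In the authors' normalized table the Hcrt difference was -0.0047. Hcrtr1 differed by 0.02 ± 0.14, Hcrtr2 by 0.08 ± 0.19, Pmch by 0.06 ± 0.11 and Mchr1 by -0.06 ± 0.31. No member exceeded its SD, and none of the 5 was past 1.5-fold, against 0.324% of 10177 genes. The ranges of 1 deposited SD overlapped for all 5, whereas they did not for 22.6% of all genes. On the non-normalized signal the diet difference in FR30 offspring was 0.04 for Hcrt and 0.0532 for Hcrtr1. In control offspring it was 0.07 and 0.045, so for Hcrtr1 the smaller difference in FR30 offspring depended on normalization.

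The third comparison asked how FR30 and control offspring differed on standard diet. Hcrt was higher in FR30 offspring by 0.14 ± 0.12 and Hcrtr1 by 0.16 ± 0.13, while Hcrtr2 was lower, at -0.105 ± 0.18. At least as far from 0 were 28.1% of 10184 genes for Hcrt and 24.5% for Hcrtr1. Set against only the 1018 detected genes of similar level to each, the shares were 16.3% for Hcrt and 25.8% for Hcrtr1. On the non-normalized signal the difference was 0.04 for Hcrt and -0.0109 for Hcrtr1, so the direction of Hcrtr1 depended on normalization. Pmch had the same value in both samples, again because its rank, 14, was the same. For Mchr1, not detected in control standard, the same bound was at least 1.12-fold higher in FR30 offspring after background correction. On the authors' normalized signal the samples were 1.08-fold apart, with overlapping SDs, and the non-normalized signal was lower in FR30 offspring (183 against 189), so no direction is drawn here either. None of the 4 members detected in both samples was past 1.5-fold, against 0.776% of all genes. The deposited ranges overlapped for all 4, and did not for 32.1% of all genes.

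On HF diet the prenatal difference was -0.08 ± 0.06 for Hcrt and -0.07 ± 0.14 for Hcrtr1, both lower in FR30 offspring. On the non-normalized signal it was 0.0105 for Hcrt and -0.0027 for Hcrtr1, so the direction of Hcrt depended on normalization. Pmch (0.03 ± 0.06), Hcrtr2 (0.02 ± 0.12) and Mchr1 (0.06 ± 0.34) were within their SDs. None of the 5 was past 1.5-fold, against 0.802% of 10347 genes. Hcrt alone had deposited ranges that did not overlap, as did 34.3% of all genes. The median of the 5 members was 0.02, beside 0.00 over all genes.

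**Figure D2:**
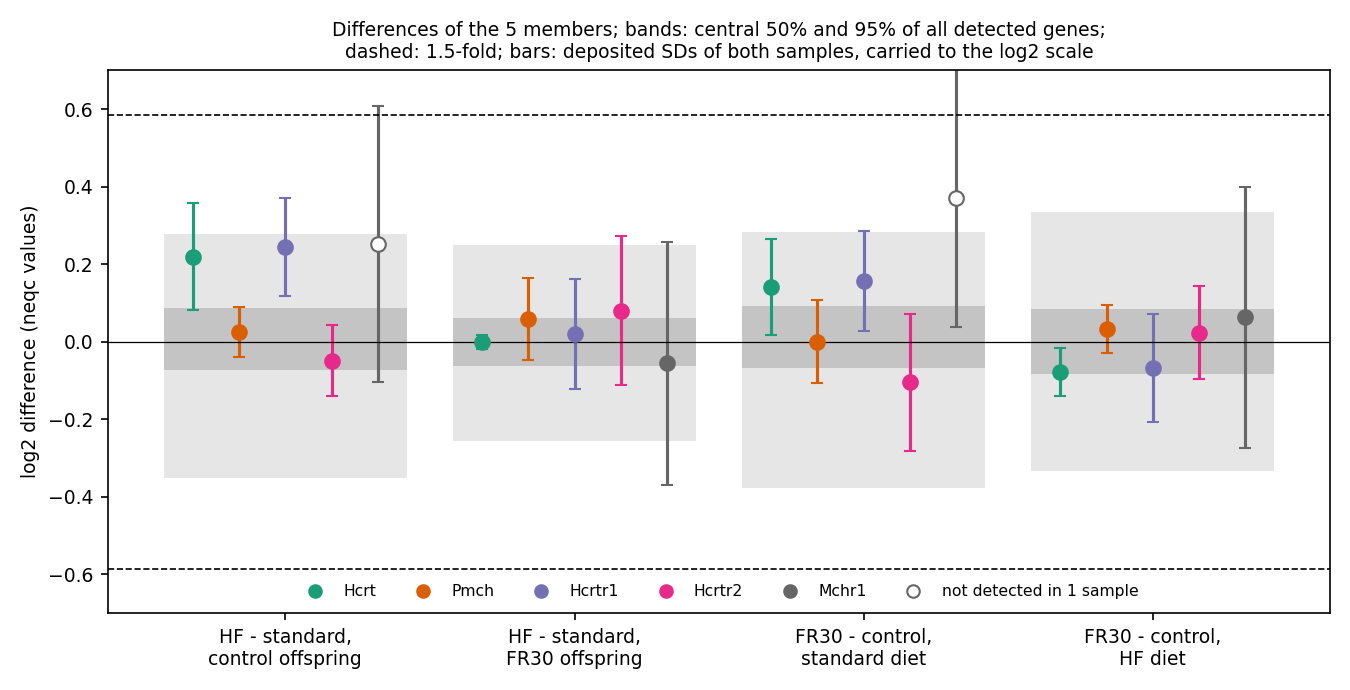
Log2 differences (vertical axis) of the 5 members in the 4 comparisons, with the deposited SDs of both samples combined as bars, open symbols where Mchr1 was not detected in 1 sample, and bands for the central 50% and 95% of all detected genes. All points lie between the dashed lines at 1.5-fold, and Hcrt (0.22) and Hcrtr1 (0.24) stand highest among detected members, on HF against standard diet in control offspring.

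The diet difference was compared between prenatal groups by subtraction. After normalization it was smaller in FR30 than in control offspring by 0.22 for Hcrt and by 0.22 for Hcrtr1 (-0.22 in both). It was larger by 0.13 for Hcrtr2 and by 0.03 for Pmch. Of 10100 genes detected in all samples, 1.24% passed 1.5-fold in this measure, and no member did. Values at least as far from 0 as that of Hcrt were found for 17.5% of genes. With 1 sample per group this difference could not be tested. On the non-normalized signal the diet difference of Hcrt was 0.07 in control and 0.04 in FR30 offspring. That of Hcrtr1 was 0.045 and 0.0532, and so was not smaller in FR30 offspring.

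A limma fit with additive terms for prenatal group and diet was made over the genes detected throughout, in which the departure from additivity (1 residual degree of freedom) served as error. The HF term was 0.11 (SE 0.08, 95% interval -0.09 to 0.31) for Hcrt, with an adjusted p of 0.812. For Hcrtr1 it was 0.13 (SE 0.08, -0.07 to 0.33), with an adjusted p of 0.785. For Pmch it was 0.04 (SE 0.06, -0.11 to 0.19) and for Hcrtr2 0.02 (SE 0.06, -0.15 to 0.18). The FR30 term was 0.03 for Hcrt (-0.17 to 0.23), 0.02 for Pmch (-0.14 to 0.17), 0.04 for Hcrtr1 (-0.16 to 0.24) and -0.04 for Hcrtr2 (-0.21 to 0.13), with adjusted p between 0.830 and 0.926. No member was called in either term, against 0.0099% of 10100 genes for FR30 and 0% for HF. An unadjusted p under 0.05 was found for 1283 genes (12.7%) in the FR30 term and 719 (7.12%) in the HF term. No member had one in either term. All 8 intervals lay within 1.5-fold in either direction, under the assumption that the effects of prenatal group and diet add. The diet difference after normalization was 0.22 in control and 0.00 in FR30 offspring for Hcrt, and 0.24 and 0.02 for Hcrtr1. With 1 sample per group the intervals do not measure variation between animals, and absence of an effect cannot be read from them.

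The 4 members detected in all samples were set against every other such gene by the root mean square difference of their log2 values over the 4 samples, each gene centred on its own mean. Hcrt and Hcrtr1 were 0.0125 apart, with 16 of 10099 genes nearer to Hcrt and 7 nearer to Hcrtr1. On the authors' normalized scale they were 0.0205 apart, with 49 genes nearer to Hcrt and 169 nearer to Hcrtr1. They were the nearest pair of members on neqc values, whereas on the authors' scale Pmch and Hcrtr2 were nearer, at 0.02. On neqc values Hcrtr2 was 0.105 from Hcrt and 0.114 from Hcrtr1, with 59.8% and 60.4% of genes nearer to each. Pmch was 0.072 from Hcrt, 0.0795 from Hcrtr1 and 0.0396 from Hcrtr2. Nearest to Hcrt were Abhd8 (0.0014), Ice1 (0.0052) and C18h18orf54 (0.0060), and within 0.05 there were 957 genes. Nearest to Hcrtr1 were Col16a1, Sil1 and C5h1orf50, with distances between 0.0058 and 0.0085, and 682 genes lay within 0.05. Pmch and Hcrtr2, which varied less, had 3336 and 1862 genes within 0.05. Nearest to Pmch were Lrrc8d, LOC687248 and Oplah, and nearest to Hcrtr2 were RGD1566233, Prdm2 and Scarb2. These distances rest on 4 samples that all genes share.

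**Figure D3:**
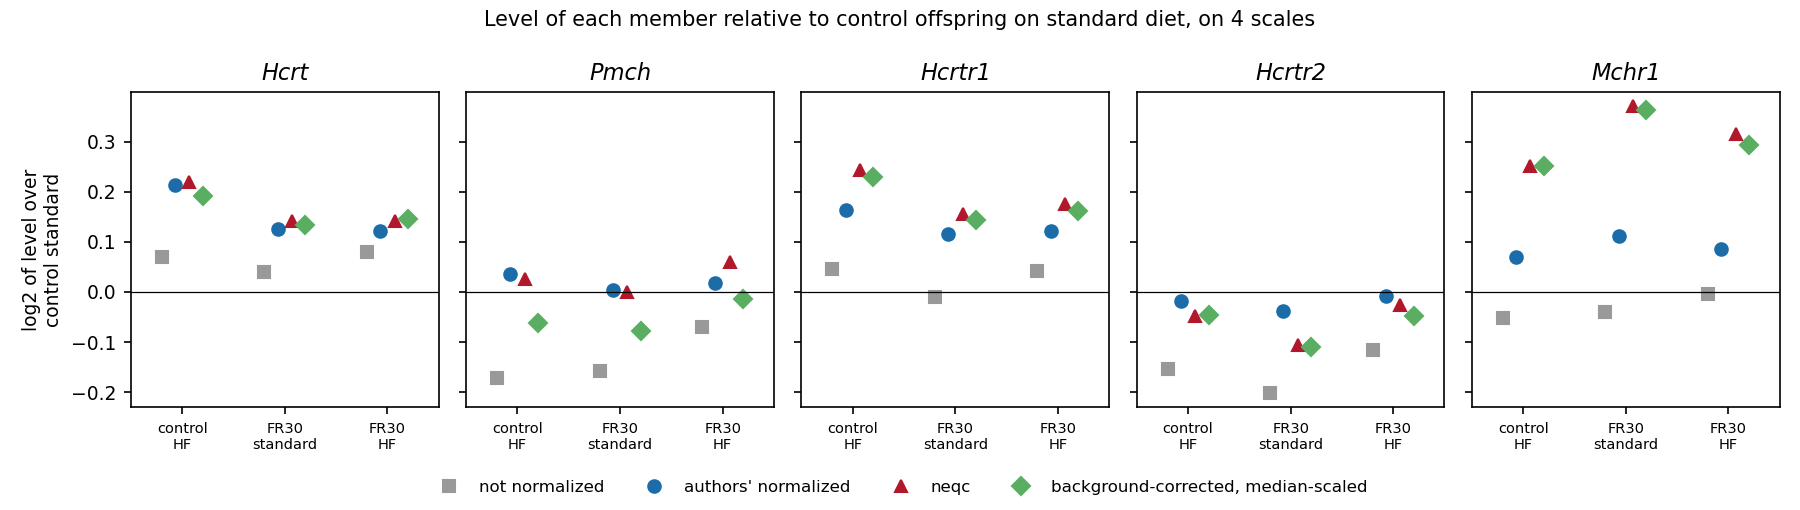
Log2 of each member's level over control offspring on standard diet (vertical axis) in the other 3 samples, on the non-normalized, authors' normalized, neqc and median-scaled scales. Hcrt and Hcrtr1 lie above 0 on the 3 normalized scales in all samples, Hcrtr2 lies below 0, and Pmch changes side with the scale, between -0.06 and 0.04 for control HF on the normalized scales.

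Genes made in the same neurons were described from lists, some of which share genes. Slc17a6 is in the lists of orexin neurons, MCH neurons and thalamus. Cartpt is in those of MCH neurons and arcuate peptides, and Tacr3 in those of MCH neurons and receptors for inputs to these neurons. Of 9 genes made in or needed for orexin neurons, 8 were on the array and 4 were detected, none past 1.5-fold. The opioid precursor Pdyn had 749 ± 24.2 (deposited SD) in control standard, 825 in control HF, 725 in FR30 standard and 700 in FR30 HF, so that control HF was highest, as for Hcrt. All 4 were higher on HF diet in control offspring, by 0.22 for the pentraxin Nptx2, 0.16 for Pdyn, 0.14 for Igfbp3 and 0.0025 for the glutamate transporter Slc17a6, where 53.8% of all genes were higher. The median of this difference was 0.15, and 0.07 with genes of detection p under 0.05 included. In FR30 offspring 1 was higher and 3 lower, with a median of -0.05. On HF diet 3 were lower in FR30 than in control offspring and Slc17a6 was equal, with Pdyn furthest at -0.27 and a median of -0.11, beside 0.00 over all genes. With genes of detection p under 0.05 included, that median was -0.015. On standard diet 3 were higher and 1 lower in FR30 offspring, with a median of 0.08. The transcription factors Lhx9, Ebf2 and Nr6a1 and the peptide gene Qrfp were not detected in any sample. All 4 detected genes are also made outside orexin neurons.

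Of 7 genes of MCH neurons, 6 were on the array and all 6 were detected, none past 1.5-fold. On HF diet 4 were lower in FR30 than in control offspring, 1 higher and Slc17a6 equal, where 51.4% of all genes were higher. The median was -0.17, beside 0.00 over all genes, and was -0.07 on the authors' normalized signal. Nucb2, the precursor of nesfatin, was furthest at -0.21 and the satiety peptide Cartpt stood at -0.205, while the GABA-synthesising enzyme Gad1 was higher by 0.07. In control offspring 3 were higher and 3 lower on HF diet, from Cnr1, the cannabinoid receptor, at -0.25 to Nucb2 at 0.17. On standard diet 3 were higher and 3 lower in FR30 offspring, from Cnr1 at -0.28 to Slc17a6 at 0.16.

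Receptors through which hormones and transmitters reach these neurons were in part not detected. Of 18 on the array 11 were detected in each comparison. Those for leptin (Lepr), insulin (Insr), ghrelin (Ghsr) and GLP-1 (Glp1r) were not detected in any sample. On HF diet 7 were higher and 4 lower in control offspring, with a median of 0.10, and 3 were higher and 8 lower in FR30 offspring, with a median of -0.08. The GABA-B receptor subunit Gabbr1 was furthest, at -0.39 for diet in FR30 offspring and -0.32 for FR30 against control on HF diet. The melanocortin receptor Mc3r was highest in both of these, at 0.19 and 0.12. None passed 1.5-fold.

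The signalling genes below the receptors were lower or higher without a common direction. Of 16 detected in control offspring on HF diet 5 were higher and 11 lower (median -0.06). In FR30 offspring 9 were higher and 7 lower. Gnaq is the Gq alpha subunit through which orexin receptors signal. Its signals were 262 ± 6.06 (deposited SD) in control standard, 247 ± 4.36 in control HF, 235 ± 11.8 in FR30 standard and 216 ± 12.3 in FR30 HF. Its log2 difference between FR30 and control was -0.35 with standard and -0.47 with HF diet, the furthest of this list in both. Background correction widens such differences of dim probes. Gna11 of the same list was at -0.30 with standard and 0.09 with HF diet. The potassium channel subunit Kcnj3 was highest in FR30 against control offspring on HF diet, at 0.39. Its signals were dim, with 184 ± 8.38 (deposited SD) in control HF and 199 ± 5.24 in FR30 HF. Medians over all probes in these samples were 181 and 181.2, and Kcnj3 was not detected in control standard. None passed 1.5-fold.

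Of 13 genes of wake-promoting cells that orexin excites, 6 were detected, and the markers of noradrenaline and serotonin cells Dbh, Slc6a2, Tph2 and Slc6a4 were not. Th, the enzyme that limits dopamine and noradrenaline synthesis, was higher in FR30 than in control offspring by 0.60 on HF diet, and was the only gene past 1.5-fold in the lists of the orexin and MCH systems. On the authors' normalized signal, 1190 against 841, it was 1.41-fold higher and did not pass. The vesicular monoamine transporter Slc18a2 was higher on HF diet in FR30 offspring by 0.41. Hdc, the histamine-synthesising enzyme of the tuberomammillary nucleus, whose cells carry Hcrtr2, was chosen after its values were seen. Its signals were 959 in control standard, 958 in control HF, 1027 in FR30 standard and 1145 in FR30 HF, a prenatal difference of 0.12 on standard and 0.29 on HF diet. Th and Slc18a2 also belong to the midbrain dopamine markers, whose sum was highest in FR30 HF. Their part in these values was not tested.

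All 11 genes that process and store peptides were detected, with medians between -0.05 and 0.05 in the 4 comparisons. Pcsk1n, an inhibitor of the convertase that cuts such precursors, stood at -0.34 for diet in control offspring and was higher in FR30 than in control offspring on HF diet at 0.31. Among arcuate feeding peptides, 6 of 6 detected genes were higher on HF diet in control offspring, with a median of 0.10. In FR30 offspring 4 were higher and 2 lower, and Pomc, from which the appetite-reducing peptide alpha-MSH is cut, stood furthest, at 0.55.

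**Figure D4:**
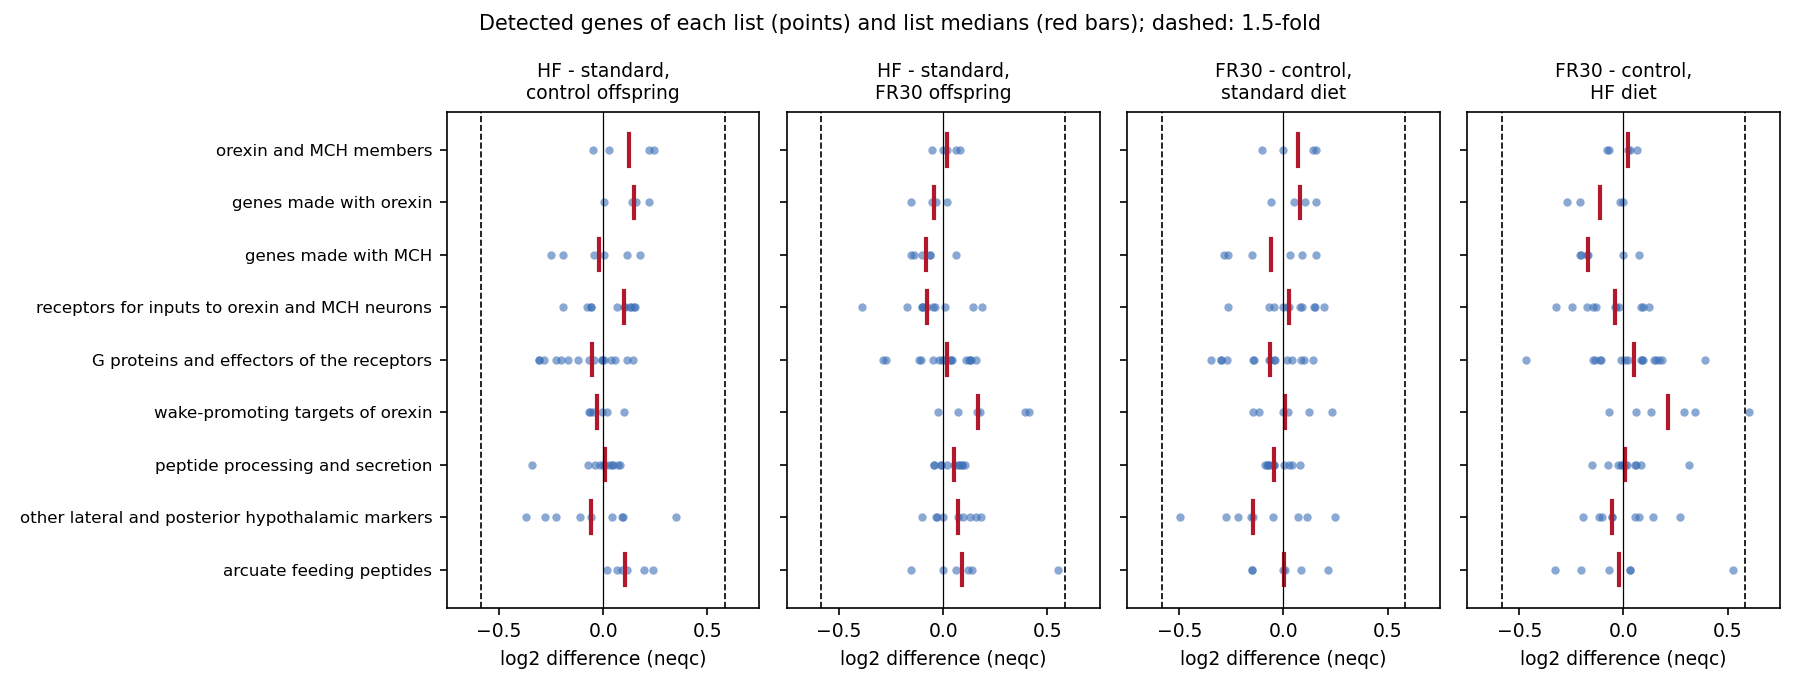
Log2 differences (horizontal axis) of detected genes of the 5 members and 8 lists (rows) in the 4 comparisons (panels), with red bars for list medians and dashed lines at 1.5-fold. Th in FR30 against control offspring on HF diet (0.60) is the 1 point past the lines, and medians of genes made with orexin lie at 0.15 for diet in control offspring and -0.05 in FR30 offspring.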

How the data were processed

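Groups were taken from the sample labels. GenomeStudio is named in the submitters' processing notes. Per the file headers, 1 table gives average signal intensity without normalization, on a linear scale, beside which a detection p-value was deposited. The other gives intensities normalized by the authors, by a method not given in the sources used here, with a deposited SD. The series' value table was identical to the latter (largest difference 0) and was not used further. Log2 values were computed from the non-normalized table with limma 3.58.1 in R 4.3.3 (neqc, offset 16, quantile normalization). Genes were represented by their probe with the highest mean. Of 22523 probes, 10291 held a current RefSeq symbol, 4966 an older one, 1642 a gene number and 5495 a symbol kept as given, while 117 without a symbol and 12 with a date in its place were left out.

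The deposited SD was carried to the log2 scale by dividing it by the background-corrected level. The additive fit used lmFit and eBayes with Benjamini-Hochberg adjustment at 0.05 and a prior of 3.83 degrees of freedom, and was run on simulated data. Those data held additive effects only, with noise drawn from the fitted prior. They therefore could not check the use of the departure from additivity as error. Named were the members, the genes nearest to them, list genes past 1.5-fold and the furthest of a list, with some further list genes chosen after their values were seen. The members and the 15 lists were chosen with earlier results of these data known. The number of arrays limits the precision.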

Additional observations from a re-analysis of the deposited data

Results flagged for a closer look

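In 3 members the same contrast, after normalization, ran in opposite directions in both settings it was measured in. The prenatal difference (FR30 minus control) of Hcrt was 0.14 with standard and -0.08 with HF diet, a change of -0.22. That of Hcrtr1 was 0.16 and -0.07 ± 0.14 (deposited SDs combined), also a change of -0.22. On the non-normalized signal neither changed direction, with 0.04 and 0.0105 for Hcrt and -0.0109 and -0.0027 for Hcrtr1. For Hcrtr2 the diet difference was -0.05 in control and 0.08 in FR30 offspring, and its prenatal difference was -0.105 on standard and 0.02 on HF diet. Each of these Hcrtr2 differences lay within its deposited SDs. The change, 0.13, is the same for both contrasts by construction. These changes repeat those given above by subtraction and were not tested, since each group held 1 sample.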

How the results depend on the processing

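No member passed 1.5-fold in any comparison, and none was called in the additive fit, under any alternative run. The counts over all genes depended on the processing. In the order diet in control offspring, diet in FR30 offspring, FR30 on standard diet and FR30 on HF diet, 61, 33, 79 and 83 genes passed 1.5-fold, against 16, 19, 28 and 26 with the authors' normalized signal and 15, 19, 27 and 25 with quantile normalization without background correction. The latter by construction leaves the background in and narrows differences. With an offset of 50 these were 32, 47 and 50 except for diet in FR30 offspring, and with a detection p under 0.05 50 genes passed for diet in FR30 offspring. The additive fit called 1 gene for FR30 and 0 for HF, against 69 and 3 with the authors' normalized signal, 182 and 3 without background correction, and 205 and 5 with a trend in the prior variance. The cause was not tested. The FR30 term of Pmch, 0.02, was -0.0072 with the authors' signal and -0.015 with scaling to the median. The diet difference of Pmch in control offspring, 0.03, was -0.06 with scaling to the median. Over all alternatives, each of them normalized, the diet difference in control offspring was between 0.19 and 0.22 for Hcrt and between 0.16 and 0.24 for Hcrtr1. On the non-normalized signal, which was not among them, it was 0.07 and 0.045. Signs differed between alternatives for Hcrt on diet in FR30 offspring and for Hcrtr2 in FR30 against control on HF diet. They also differed for Pmch in all comparisons except diet in FR30 offspring. The non-normalized signal had the opposite sign for Hcrt in FR30 against control on HF diet (0.0105). This was also so for Hcrtr1 in FR30 against control on standard diet (-0.0109) and Mchr1 on diet in FR30 offspring (0.0363). The likeness of Hcrt and Hcrtr1 on the authors' normalized signal (49 genes nearer to Hcrt in place of 16, and 169 nearer to Hcrtr1 in place of 7) was added after seeing the data. No paired analysis was possible because each group holds 1 sample. Mchr1 and Hcrtr2 are limited by their signal over background.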
